A study of Homo sapiens with 6 samples.

Results

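Lipid-sensing nuclear receptors are transcription factors switched by small hydrophobic ligands, and 10 of them were followed here at the level of their mRNA. They were taken by symbol from the 58735 genes of the table: PPARA, PPARD and PPARG, NR1H2 and NR1H3, VDR, NR1I2, RARA, RXRA and RXRB. All 10 were found and all 10 passed the filter on low counts, as did 15694 genes in all. RNA-seq counts were available for T84 cells, an established human colorectal cancer line that forms polarised epithelial layers. One group of 3 libraries, shACSL4, carried a short hairpin against ACSL4 and the genotype label of an Acsl4 knockdown. The other group of 3, shControl, carried a control hairpin and the genotype label WT. Both groups were T84 cells kept in DMEM/F12 with fetal bovine serum and antibiotics, and no drug, ligand or time point was named for either. ACSL4 joins coenzyme A to long-chain polyunsaturated fatty acids. The series text says knockout although the titles name hairpins. How many hairpins were used, and whether cells were a clone or a pool, is not given here.

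Most of these receptors bind DNA as pairs with a retinoid X receptor, RXRA or RXRB. The preferred sites are repeats of a short half-site, AGGTCA, set apart by a spacer whose length differs between the pairs. Fatty acids and their derivatives bind the peroxisome proliferator-activated receptors (PPARs), oxysterols bind the liver X receptors (LXRs, NR1H2 and NR1H3), and calcitriol and some bile acids bind VDR. NR1I2, also called the pregnane X receptor (PXR), binds many drugs and bile acids, and RARA binds all-trans retinoic acid. In the colon PPARG and VDR are known for high levels in differentiated epithelium, and PXR for the control of drug-metabolising enzymes and transporters.

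Of the 10 receptors, 3 fell and 1 rose in shACSL4 cells, and 6 did not pass the test. NR1H3, NR1I2 and PPARG fell to 0.65, 0.69 and 0.76 of their shControl levels, and VDR rose 1.21-fold. Neither retinoid X receptor passed the test, nor did PPARA, PPARD, NR1H2 or RARA. A gene was called changed at a Benjamini-Hochberg adjusted p under 0.05 in edgeR's quasi-likelihood test, adjusted over all 15694 genes tested. The share of receptors called, 4 of 10, was near the 47.2% called among all genes tested. Of all genes tested 24.0% were called higher and 23.1% lower, so the receptors' count is not set apart from the rest of the transcriptome. Of all calls 50.9% were higher, a share that became 65.6% with library size alone as the scaling, where the overall median was 0.13. The median log2 fold change of the 10 receptors was -0.12, against 0.01 for all genes tested. The groups did not overlap for 4 of 10 receptors, and for 55.1% of all genes tested. The authors' deposited table called the same 4 receptors at an adjusted p under 0.05, a threshold passed there by 21.5% of the 30841 genes with an adjusted p. That is a wider set than the 15694 genes tested here, so its share cannot be set beside 47.2%. The genes called numbered 6637 there and 7400 here. In bulk libraries such as these, fewer cells with a transcript and less of it per cell cannot be told apart.

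**Figure D1:**
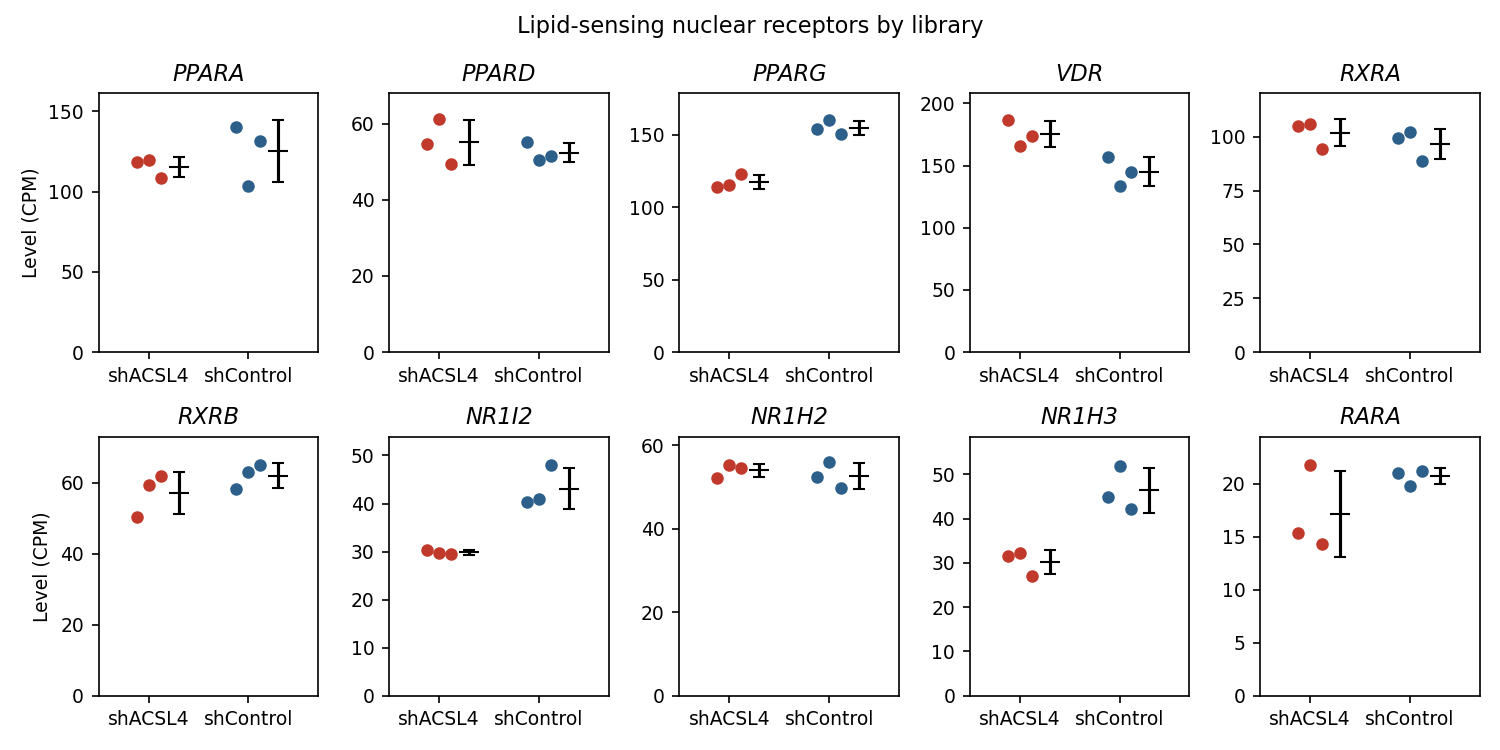
Level of each receptor in CPM (linear axis from 0), with 1 point per library, shACSL4 in red and shControl in blue. The bars give the mean and SD of the 3 libraries of a group. The groups stand apart for PPARG, NR1I2 and NR1H3, which were lower in shACSL4, and for VDR, which was higher.

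Total counts ranged from 14740383 to 17620630 per library, so that 3 counts correspond to 0.171 to 0.202 CPM, the TMM-scaled counts per library size used here. Every receptor lay far above that floor, the lowest value being 14.4 CPM for RARA in shACSL4 replicate 3. ACSL4 itself stood at 10.3, 9.12 and 11.1 CPM in shACSL4 and 75.5, 72.2 and 72.0 CPM in shControl, which follows the labels. All 12 colonic epithelial markers were present, with summed levels of 8464 to 9797 CPM in shACSL4 and 7120 to 8427 CPM in shControl. Of 7 fibroblast, 9 leukocyte and 5 endothelial markers, 5, 7 and 5 stayed under 1 CPM in every library, and PDGFRA, CD3E and KDR were at 0. The summed leukocyte markers were 4.56 to 5.50 CPM in shACSL4 and 8.54 to 11.0 CPM in shControl, with ITGAM the highest, and their part in the receptors' values was not tested. Throughout, 3 values in a row are those of replicates 1, 2 and 3.

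The DNA just upstream of the 3 receptors that fell is shown first, because these are the members whose RNA was lower. The windows come from RefSeq (GRCh38.p14), run from 250 bases before to 50 bases from an annotated start, and are on the plus strand. Capitals mark each AGGTCA half-site and the first transcribed base.
PPARG, chr3:12287118-12287417: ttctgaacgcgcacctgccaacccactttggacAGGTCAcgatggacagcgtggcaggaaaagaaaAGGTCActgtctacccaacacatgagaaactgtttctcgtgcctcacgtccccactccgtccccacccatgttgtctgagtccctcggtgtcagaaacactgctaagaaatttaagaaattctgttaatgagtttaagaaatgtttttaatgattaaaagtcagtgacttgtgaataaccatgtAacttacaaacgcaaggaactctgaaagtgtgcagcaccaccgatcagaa
NR1I2, chr3:119781851-119782150: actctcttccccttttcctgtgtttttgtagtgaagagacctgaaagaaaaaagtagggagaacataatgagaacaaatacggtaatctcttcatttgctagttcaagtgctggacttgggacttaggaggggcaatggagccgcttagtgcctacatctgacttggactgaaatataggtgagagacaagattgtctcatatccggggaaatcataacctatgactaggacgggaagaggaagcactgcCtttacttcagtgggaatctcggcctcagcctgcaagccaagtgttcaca
NR1H3, chr11:47248050-47248349: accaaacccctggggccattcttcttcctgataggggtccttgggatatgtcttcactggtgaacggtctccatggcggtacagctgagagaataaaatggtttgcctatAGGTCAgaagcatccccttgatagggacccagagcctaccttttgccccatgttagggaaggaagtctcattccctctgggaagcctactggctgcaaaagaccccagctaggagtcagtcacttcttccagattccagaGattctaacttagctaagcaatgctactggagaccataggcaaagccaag
The PPARG window holds 2 half-sites, beginning at -217 and -184 relative to the start, and the NR1H3 window holds 1, beginning at -140. The NR1I2 window holds none, and its annotated start lies 1617 bases inside the 5′ end of the gene as the table gives it. PPARG had 6 windows listed, NR1H3 had 4 and NR1I2 had 2, and only the window nearest the 5′ end is printed. Which start T84 cells use was not tested. No window was listed for VDR, the receptor called higher. AGGTCA was searched on both strands in all 23 windows of the other 9 receptors, and 5 held it, though windows of 1 gene can overlap and share a half-site. Among 35116 windows of the same length for all genes, 13.8% held it. The paired forms AGGTCANAGGTCA, with a spacer of 1 base, and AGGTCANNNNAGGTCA, with a spacer of 4, contain 2 copies of the half-site and were in 0 of the 23 windows. They were in 0.0228% and 0.0199% of all windows, and the windows do not cover sites farther away.

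The 3 windows printed were also low in G and C. The window nearest the 5′ end of the gene had 45.0% G and C for PPARG, 45.3% for NR1I2 and 50.3% for NR1H3. The 6 receptors that did not pass the test and had a window ranged from 57.0% for RARA to 85.7% for PPARA, but the windows nearest to NR1H2 and RXRA lay 46804 and 9357 bases from the 5′ end. Other windows of the same genes did not keep this split: the remaining NR1H3 windows had 62.7% to 66.0%, and a second RXRB window had 54.0%. Across all windows the median was 58.7%. This comparison was chosen after the values were seen, and tested genes at large showed no such split. Of the 990 tested genes whose nearest window had at most the 50.3% of NR1H3, 27.0% were called lower and 27.0% higher. Of the 8260 with at least the 57.0% of RARA, 25.3% were called lower and 25.0% higher.

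The PPARs are the receptors for fatty acids. PPARG, the regulator of fat cell formation that is also abundant in colon epithelium, fell in shACSL4 cells (ENSG00000132170, GRCh38 chromosome 3, 12287368 to 12434356, plus strand). Its level was 114, 116 and 123 CPM in shACSL4 and 154, 159.9 and 151 CPM in shControl. Every shACSL4 library was below every shControl library, by a margin wider than the spread within either group. The group levels were 118 ± 4.74 CPM in shACSL4 and 155 ± 4.69 CPM in shControl (SD, n = 3 each), with a log2 fold change of -0.40 (SE 0.08, 95% interval -0.57 to -0.22, edgeR adjusted p = 0.000769). PPARA, known for driving fatty acid oxidation in liver, did not pass the test (ENSG00000186951, GRCh38 chromosome 22, 46150521 to 46243756, plus strand). Its level was 118, 119 and 108 CPM in shACSL4 and 140.3, 103 and 131 CPM in shControl. The groups overlapped, with shControl replicate 2 below every other library, and the log2 fold change was -0.12 (SE 0.10, 95% interval -0.34 to 0.10, edgeR adjusted p = 0.38). Without that library PPARA was called lower, at a log2 fold change of -0.24 (edgeR adjusted p = 0.0239). PPARD, the form found in most tissues, gave 54.6, 61.1 and 49.4 CPM in shACSL4 and 55.2, 50.4 and 51.4 CPM in shControl (ENSG00000112033, GRCh38 chromosome 6, 35342558 to 35428191, plus strand). All 3 of its shControl values lay within the range of the shACSL4 values, and the log2 fold change was 0.07 (SE 0.09, 95% interval -0.13 to 0.27, edgeR adjusted p = 0.558).

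The LXRs sense oxysterols and control the export of cholesterol and the synthesis of fatty acids. NR1H3, or LXR alpha, had the smallest adjusted p of the 10 receptors (ENSG00000025434, GRCh38 chromosome 11, 47248300 to 47269032, plus strand). It was at 31.5, 32.2 and 27.1 CPM in shACSL4 and 45.0, 51.9 and 42.2 CPM in shControl. Its highest shACSL4 value lay well under its lowest shControl value. The means were 30.3 ± 2.74 CPM in shACSL4 and 46.4 ± 4.99 CPM in shControl (SD, n = 3 each), and the log2 fold change was -0.61 (SE 0.10, 95% interval -0.84 to -0.39, edgeR adjusted p = 0.000138). An exon of NR1H3 overlaps the gene ACP2 on the other strand, with 189 of 4533 exonic bases (4.17%) in common. Whether the counting used strand is not stated, so reads from those bases cannot be assigned to either gene. ACP2 moved the other way, with 36.6, 42.0 and 40.0 CPM in shACSL4 and 25.9, 29.1 and 23.8 CPM in shControl and a log2 fold change of 0.59 (SE 0.10, edgeR adjusted p = 0.00019). NR1H2, or LXR beta, the form with the broader tissue range, stood at 52.2, 55.3 and 54.5 CPM in shACSL4 and 52.4, 56.1 and 49.8 CPM in shControl (ENSG00000131408, GRCh38 chromosome 19, 50329653 to 50382982, plus strand). All 3 shACSL4 values lay within the shControl range, and the log2 fold change was 0.03 (SE 0.09, 95% interval -0.15 to 0.22, edgeR adjusted p = 0.773). The 51 tested genes around it on chromosome 19, itself included, had a median log2 fold change of 0.40. Relative to that median NR1H2 was at -0.37, with an adjusted p = 0.00229 from a t test on the edgeR SE. The median was subtracted as fixed, so its own error is left out.

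VDR, the receptor for calcitriol, was the single receptor called higher (ENSG00000111424, GRCh38 chromosome 12, 47841537 to 47943048, minus strand). It had 186, 166 and 174 CPM in shACSL4 and 157, 134 and 145 CPM in shControl. The lowest shACSL4 value was above the highest shControl value, though by less than the spread within a group. Means were 175 ± 10.4 CPM in shACSL4 and 145 ± 11.8 CPM in shControl (SD, n = 3 each), with a log2 fold change of 0.27 (SE 0.09, 95% interval 0.09 to 0.46, edgeR adjusted p = 0.0183). This call rested on single libraries. The log2 fold change was 0.23 without shACSL4 replicate 1 (edgeR adjusted p = 0.1) and 0.26 without shControl replicate 3 (edgeR adjusted p = 0.0559). Relative to the median of its 51 neighbouring genes it was 0.18 (adjusted p = 0.105, t test on the edgeR SE with the median as fixed). NR1I2, the drug and bile acid sensor PXR, fell (ENSG00000144852, GRCh38 chromosome 3, 119780484 to 119818485, plus strand). Its libraries read 30.3, 29.8 and 29.4 CPM in shACSL4 and 40.3, 40.9 and 48.0 CPM in shControl. The shACSL4 libraries were nearly identical to one another, and shControl replicate 3 stood above the other shControl libraries. Mean levels were 29.8 ± 0.430 CPM in shACSL4 and 43.1 ± 4.29 CPM in shControl (SD, n = 3 each), and the log2 fold change was -0.53 (SE 0.10, 95% interval -0.73 to -0.32, edgeR adjusted p = 0.000277).

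RARA, a receptor for all-trans retinoic acid, was the least abundant of the 10 per length (ENSG00000131759, GRCh38 chromosome 17, 40309192 to 40357643, plus strand). It showed 15.3, 21.8 and 14.4 CPM in shACSL4 and 21.1, 19.8 and 21.3 CPM in shControl. In shACSL4 replicates 1 and 3 it was below all shControl values, and in replicate 2 above them. With all 6 libraries the log2 fold change was -0.27 (SE 0.14, 95% interval -0.57 to 0.03, edgeR adjusted p = 0.133). Without shACSL4 replicate 2 it was called lower, at -0.48 (edgeR adjusted p = 0.00955), so that one library decides this call. RARG, a second receptor of retinoic acid, had 34.5, 43.2 and 41.5 CPM in shACSL4 and 34.7, 29.9 and 32.4 CPM in shControl and was called higher at 0.30 (edgeR adjusted p = 0.0281) although the groups overlapped. RARB had at most 6 counts in any library and was not tested.

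The retinoid X receptors are the shared partners of the other 8. The remaining member of that family, RXRG, had at most 1 count in any library, under the floor of 3 counts. RXRA was measured at 105, 106 and 94.5 CPM in shACSL4 and 99.4, 102 and 88.8 CPM in shControl (ENSG00000186350, GRCh38 chromosome 9, 134317098 to 134440585, plus strand). Both groups had their lowest value in replicate 3, the ranges overlapped, and the log2 fold change was 0.07 (SE 0.09, 95% interval -0.11 to 0.26, edgeR adjusted p = 0.516). RXRB gave 50.3, 59.2 and 61.7 CPM in shACSL4 and 58.1, 63.0 and 64.8 CPM in shControl (ENSG00000204231, GRCh38 chromosome 6, 33193588 to 33200688, minus strand). The values of shACSL4 replicates 2 and 3 lay within the shControl range and that of replicate 1 below it, and the log2 fold change was -0.12 (SE 0.09, 95% interval -0.32 to 0.08, edgeR adjusted p = 0.326). With library size alone as the scaling the RXRB value was 0.00, and relative to its neighbours, whose median was -0.19, it was 0.08, so it has no stable direction. RXRB shares 244 of 3920 exonic bases (6.22%) with SLC39A7, which had 131, 124 and 129 CPM in shACSL4 and 212, 214 and 200.1 CPM in shControl and a log2 fold change of -0.70 (SE 0.08).

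**Figure D2:**
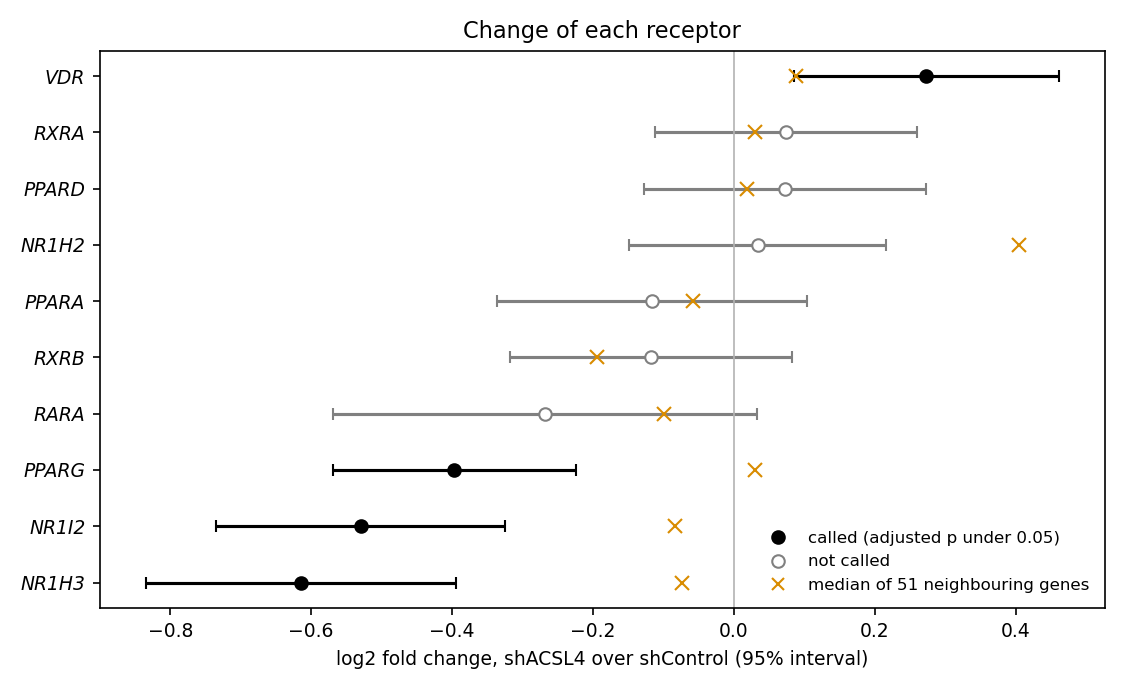
Log2 fold change of each receptor, shACSL4 over shControl, with its 95% interval. Filled points passed an adjusted p of 0.05, open points did not, and crosses give the median of 51 neighbouring genes on the chromosome. Intervals of NR1H3, NR1I2 and PPARG lie below 0, that of VDR above it, and the neighbours of NR1H2 stand at 0.40.

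Levels of different genes were compared per length, in the authors' FPKM. In shACSL4 cells VDR ranked first at 30.4 ± 1.72 FPKM and PPARG second at 25.5 ± 1.02 FPKM (SD, n = 3). In shControl cells PPARG ranked first at 33.9 ± 1.25 FPKM and VDR second at 25.4 ± 2.07 FPKM. The ranges of the pair did not overlap in either group, so the 2 most abundant receptors exchanged places. RXRB, NR1H2 and PPARD followed in both groups in that order. RXRB had 14.3 ± 1.53 FPKM in shACSL4 and 15.7 ± 0.820 FPKM in shControl, and NR1H2 had 14.2 ± 0.455 FPKM in shACSL4 and 14.0 ± 0.928 FPKM in shControl. Their ranges overlapped in both groups, so RXRB and NR1H2 cannot be ordered. PPARD stood at 12.2 ± 1.32 FPKM in shACSL4 and 11.7 ± 0.587 FPKM in shControl.

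In shACSL4 cells the rest of the order ran RXRA at 9.04 ± 0.572 FPKM, PPARA at 8.59 ± 0.464 FPKM and NR1H3 at 6.58 ± 0.603 FPKM. NR1I2 at 5.45 ± 0.0746 FPKM and RARA at 3.57 ± 0.850 FPKM closed it. In shControl cells NR1H3 came sixth at 10.2 ± 1.16 FPKM, before PPARA at 9.40 ± 1.43 FPKM and RXRA at 8.68 ± 0.689 FPKM. NR1I2 at 7.95 ± 0.732 FPKM and RARA at 4.35 ± 0.141 FPKM came last there too. In shACSL4 the ranges of neighbours overlapped for RXRA and PPARA and were apart from NR1H3 down. In shControl each neighbouring pair from PPARD through NR1I2 overlapped, so those steps of the order are not resolved, although NR1H3 and NR1I2 themselves were apart. RARA was apart from NR1I2 in both groups. Against all genes tested the receptors' mean FPKM ran from the 46.9th percentile for RARA to the 90.5th for PPARG, which makes PPARG and VDR abundant transcripts of these cells.

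**Figure D3:**
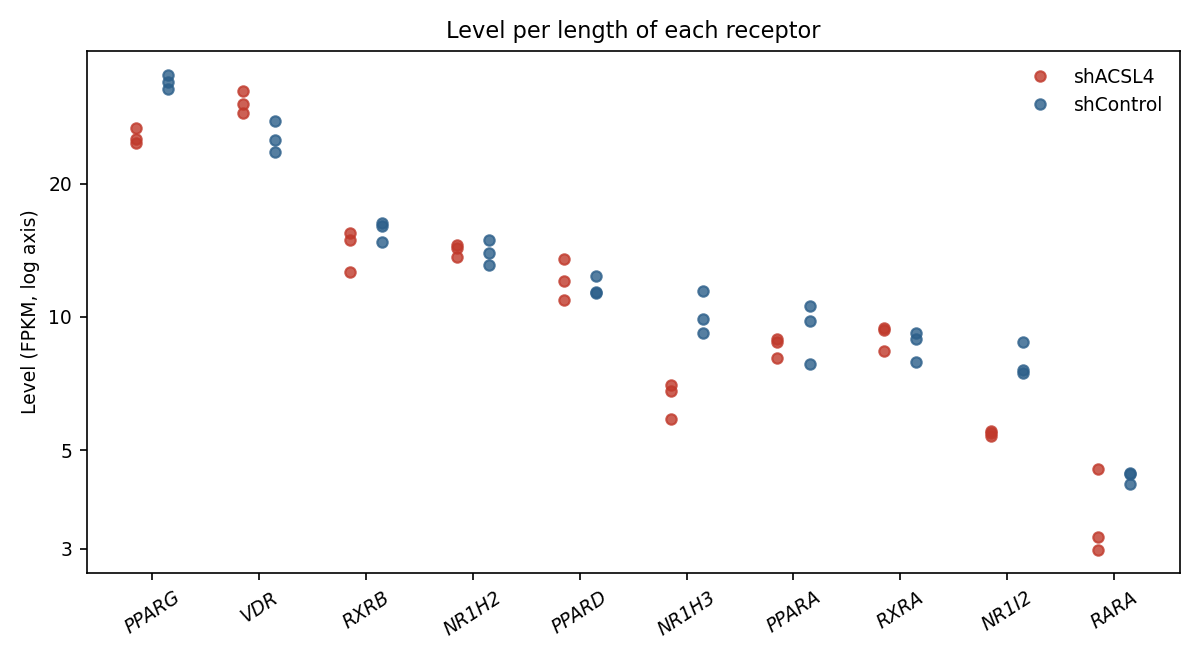
Level of each receptor in the authors' FPKM (log axis), 1 point per library, shACSL4 in red to the left of shControl in blue, genes ordered by their shControl mean. PPARG leads in shControl and VDR in shACSL4, and NR1H3, above PPARA and RXRA in shControl by its mean, is below both in shACSL4.

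The make-up of each receptor family follows from these levels. PPARG made up 54.3%, 52.8% and 58.5% of the summed PPAR FPKM in shACSL4 libraries and 59.6%, 64.8% and 60.7% in shControl libraries. PPARG was the main PPAR in every library, and its share was lower in each shACSL4 library than in any shControl library. NR1H3 made up 33.3%, 32.5% and 29.2% of the summed LXR FPKM in shACSL4 and 41.6%, 43.4% and 41.3% in shControl. NR1H2 was thus the main LXR in all 6 libraries, and more so in shACSL4. RXRA was 38.8 ± 3.70% of the summed RXRA and RXRB FPKM in shACSL4 and 35.6 ± 2.64% in shControl (SD, n = 3). The summed RXR level was 23.4 ± 1.28 FPKM in shACSL4 and 24.4 ± 0.784 FPKM in shControl, and that of the 8 other receptors was 106 ± 1.92 FPKM in shACSL4 and 117 ± 2.88 FPKM in shControl. The other receptors together exceeded the RXR transcripts 4.56 ± 0.277-fold in shACSL4 and 4.80 ± 0.241-fold in shControl.

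Ratios of paralogues within a library do not depend on how libraries are scaled, and 5 of them were compared. NR1H2 over NR1H3 was 2.00, 2.07 and 2.42 in shACSL4 and 1.41, 1.30 and 1.42 in shControl. PPARG over PPARD was 2.06, 1.86 and 2.45 in shACSL4 and 2.74, 3.12 and 2.88 in shControl. NR1I2 over VDR was 0.171, 0.189 and 0.178 in shACSL4 and 0.271, 0.323 and 0.350 in shControl. For these 3 ratios the groups did not overlap, with differences of 0.65, -0.46 and -0.80 on the log2 scale. An exact two-sided permutation test over the 6 libraries gave p = 0.1 for each, the smallest p that 3 against 3 libraries allow, and 0.167 after Benjamini-Hochberg adjustment over the 5 ratios. RXRA over RXRB differed by 0.20 on the log2 scale (exact permutation p = 0.4, adjusted 0.4). PPARA over PPARD differed by -0.17 (exact permutation p = 0.3, adjusted 0.375). The groups overlapped for both of these. The RXRA over RXRB difference was 0.085 without shACSL4 replicate 1, 0.31 without shACSL4 replicate 3 and 0.10 without shControl replicate 3, and the PPARA over PPARD difference was -0.28 without shControl replicate 2.

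Genes that the receptors are known to control were taken as whole lists, whichever way they moved. Of 21 tested PPAR targets, 10 were lower, 1 was higher and 10 did not pass the test, with a median log2 fold change of -0.28 against 0.01 for all genes. That median was -0.53 without shACSL4 replicate 1, -0.43 without shControl replicate 2, -0.51 among genes averaging 50 counts or more, -0.14 with no filter and -0.16 scaled by library size alone. The share called, 52.4%, is near the 47.2% of all genes, while 10 of 11 calls were in one direction. FABP1, a fatty acid carrier of enterocytes, had 51.9, 47.2 and 49.8 CPM in shACSL4 and 415, 456 and 339 CPM in shControl. PLIN2, a coat protein of lipid droplets, had 62.7, 53.0 and 61.2 CPM in shACSL4 and 172, 182 and 169.6 CPM in shControl. ANGPTL4, a secreted inhibitor of lipoprotein lipase, had 0.641, 1.14 and 0.886 CPM in shACSL4 and 11.7, 10.7 and 10.6 CPM in shControl, and CIDEC, a protein of droplet fusion, had 2.05, 1.77 and 1.90 CPM in shACSL4 and 6.90, 9.85 and 9.62 CPM in shControl. For all 4 the groups lay far apart, with log2 fold changes of -3.02 (SE 0.11), -1.56 (SE 0.09), -3.61 (SE 0.23) and -2.20 (SE 0.22). These 4 were named for the smallest adjusted p of the list, so that separation follows from the choice. Over the list the groups did not overlap for 13 of 21 targets, against 55.1% of all genes tested. The oxidation genes CPT1A at -1.09 and ACADVL at -0.87 were also called lower, and ETFDH at 0.41 was the single target called higher. The count of higher targets was 0 without shACSL4 replicate 1 or shControl replicate 1, 2 without shACSL4 replicate 2 or shControl replicate 2, and 4 with library size alone.

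Among 10 tested LXR targets 90.0% were called, against 47.2% of all genes tested. Of these targets 6 were higher, 3 lower and 1 did not pass the test, with a median of 0.48, while NR1H3 itself was lower. That median was 0.22 without shACSL4 replicate 3, 0.16 with no filter on low counts and 0.28 with limma-trend on FPKM. SREBF1, the transcription factor of fatty acid synthesis genes, had 214, 215 and 214 CPM in shACSL4 and 106, 119 and 120.5 CPM in shControl. SCD, which puts a double bond into saturated fatty acids, had 1492, 1393 and 1274 CPM in shACSL4 and 789, 662 and 743 CPM in shControl. The shACSL4 libraries of both lay well above all shControl libraries. LPCAT3, which places polyunsaturated chains in phospholipids, had 91.3, 85.6 and 81.3 CPM in shACSL4 and 65.8, 56.7 and 60.5 CPM in shControl. The log2 fold changes of these 3 were 0.89 (SE 0.08), 0.92 (SE 0.10) and 0.50 (SE 0.09). The list divided by gene, since ABCA1, the cholesterol exporter, was lower at -0.51 (edgeR adjusted p = 0.0156) although its groups overlapped. MYLIP, which marks the LDL receptor for degradation, was lower at -0.48, and FASN at -0.29. The count of lower targets was 1 with library size alone, and 1 without shACSL4 replicate 2, shACSL4 replicate 3 or shControl replicate 1. SREBF1, SCD and FASN are also governed by other factors.

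VDR targets divided. Of 17, 7 passed the filter on low counts, and 71.4% of these were called, against 47.2% of all genes tested. There were 2 higher and 3 lower, with a median of -0.19. The higher ones numbered 1 without shACSL4 replicate 1, shACSL4 replicate 2 or shControl replicate 1, and 3 without shACSL4 replicate 3. The median took either sign, up to 0.20 among genes averaging 50 counts or more and down to -1.03 without shControl replicate 3. CLDN2, a pore-forming tight junction protein, fell furthest, with 259, 252 and 269 CPM in shACSL4 and 906, 889 and 881 CPM in shControl. CDKN1A, a cell cycle inhibitor, had 89.9, 108 and 111 CPM in shACSL4 and 73.5, 73.4 and 78.4 CPM in shControl. CYP24A1, the enzyme that breaks down calcitriol and the classical target of VDR, had only 13, 4 and 6 counts in shACSL4 and 35, 19 and 13 in shControl. Its log2 fold change of -1.54 (SE 0.50, edgeR adjusted p = 0.0169) lost its call without shACSL4 replicate 2, shACSL4 replicate 3 or shControl replicate 1 (edgeR adjusted p = 0.0925, 0.0652 and 0.124). CD14 was also low, with 1.41, 0.912 and 0.949 CPM in shACSL4 and 2.26, 2.26 and 2.49 CPM in shControl, and it is a leukocyte gene as well.

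All 10 tested PXR targets were called, against 47.2% of all genes tested. Of these targets 6 were lower and 4 higher, with a median of -0.41. That median was 0.14 with no filter on low counts. UGT1A1, which joins glucuronic acid to bilirubin and drugs, had 9.88, 10.7 and 7.02 CPM in shACSL4 and 36.4, 30.0 and 40.9 CPM in shControl. GSTA1, a glutathione transferase, had 0.321, 1.25 and 0.759 CPM in shACSL4 and 6.37, 9.16 and 10.5 CPM in shControl. Reads of UGT1A1 and GSTA1 can also match other genes of their families, so their levels are uncertain. CYP2B6, a drug-oxidising cytochrome with a near-identical pseudogene, had 121, 121 and 127 CPM in shACSL4 and 59.8, 58.8 and 60.7 CPM in shControl, and ABCB1, the drug efflux pump, had 244, 233 and 219.7 CPM in shACSL4 and 134, 118 and 117 CPM in shControl. These 2 rose, at 1.04 (SE 0.08) and 0.92 (SE 0.09), while UGT1A1 and GSTA1 were at -1.96 (SE 0.15) and -3.44 (SE 0.32). Of 13 RAR targets 4 were tested and 0 were called by edgeR, also at an unadjusted p under 0.05. DESeq2 and limma-voom called 0 of these too, and limma-trend on FPKM called 1.

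**Figure D4:**
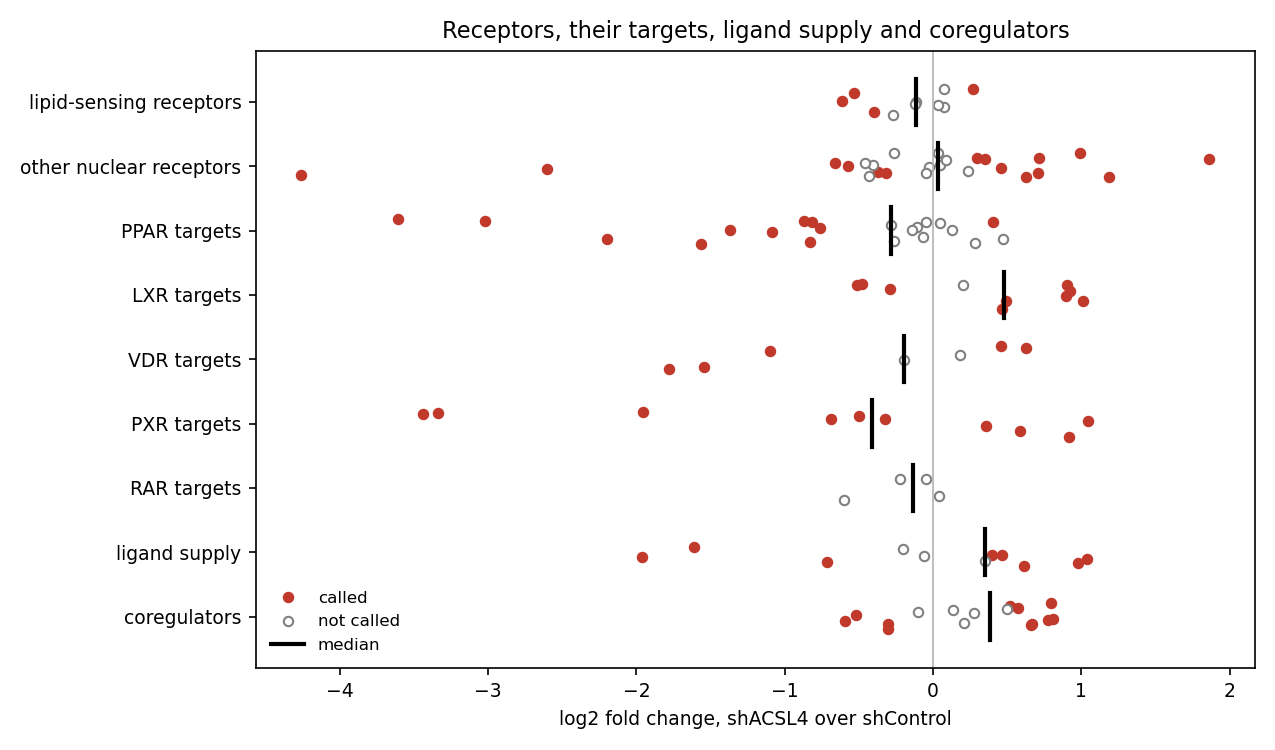
Log2 fold change, shACSL4 over shControl, of every tested gene in each list, with called genes filled, other genes open and the median as a bar. PPAR targets reach far to the left, all 10 PXR targets are filled on both sides of 0, and no RAR target is filled.

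Enzymes that supply or remove the ligands changed on both sides. Of 11 tested, 5 were higher and 3 lower, a share called of 72.7% against 47.2% of all genes tested. The median of 0.35 became -0.05 among genes averaging 50 counts or more, 0.16 with limma-trend on FPKM and 0.13 without shACSL4 replicate 2. The higher ones numbered 3 with DESeq2, and 3 without any single library other than shControl replicate 2. The 3 lower ones all act in the making of retinoic acid. ALDH1A1, which makes retinoic acid, had 364, 319 and 362 CPM in shACSL4 and 1058, 1106 and 1033 CPM in shControl. DHRS9 and RDH10 oxidise retinol to retinal. DHRS9 had 6.99, 5.87 and 6.58 CPM in shACSL4 and 26.8, 23.7 and 25.2 CPM in shControl. RDH10 had 42.7, 42.0 and 45.0 CPM in shACSL4 and 72.1, 64.1 and 76.5 CPM in shControl. All 3 enzymes had their groups apart, and their log2 fold changes were -1.61 (SE 0.09), -1.96 (SE 0.13) and -0.71 (SE 0.09). They were named for their small adjusted p, so that separation follows from the choice. Over the list the groups did not overlap for 8 of the 11 tested, against 55.1% of all genes tested. RETSAT, which saturates retinol, rose with 115, 130.5 and 117 CPM in shACSL4 and 78.8, 80.0 and 78.1 CPM in shControl. CYP27B1, which makes calcitriol, was higher at 1.04 (edgeR adjusted p = 0.00328) at a low level, with 3.14, 3.59 and 4.68 CPM in shACSL4 and 1.90, 1.76 and 1.88 CPM in shControl.

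All 16 coregulators, the proteins that receptors recruit to open or close chromatin, were tested. Of these 7 were higher and 4 lower (68.8% called, against 47.2% of all genes tested), with a median of 0.39. NCOA1, a coactivator of nuclear receptors, had 38.8, 41.8 and 35.3 CPM in shACSL4 and 23.1, 21.2 and 23.3 CPM in shControl. NCOA6, another coactivator, had 135, 138 and 108 CPM in shACSL4 and 78.2, 62.8 and 76.6 CPM in shControl. CREBBP, a histone acetyltransferase, had 211, 223 and 174 CPM in shACSL4 and 133, 95.8 and 122 CPM in shControl, and NRIP1, a corepressor, had 73.3, 66.9 and 56.9 CPM in shACSL4 and 43.4, 32.5 and 48.9 CPM in shControl. In each the groups were apart, at log2 fold changes of 0.78, 0.81, 0.80 and 0.66. These 4 were named for their small adjusted p, so that separation follows from the choice. Over the list the groups did not overlap for 9 of 16, near the 55.1% of all genes tested. PPARGC1A and PPARGC1B, the coactivators known for PPARs and oxidative metabolism, were lower instead, at -0.60 (edgeR adjusted p = 0.000689) and -0.52 (edgeR adjusted p = 0.00353). Within shControl, replicate 2 was the lowest library for 15 of 16 coregulators, and within shACSL4 replicate 3 was for 13 of 16. Those 2 libraries were also low for the 2861 tested genes with a deposited length over 8 kb, by a median of 0.08 on the log2 scale in shACSL4 replicate 3 and 0.09 in shControl replicate 2. Among the 10 receptors PPARA and RXRA also exceed that length, at 13219 and 11083 bases. RXRA was lowest of its group in shACSL4 replicate 3, at 94.5 CPM, but highest of its group in shControl replicate 2, at 102 CPM. PPARA was not called with shControl replicate 2 and was called lower without it. The part of this in the values of the coregulators, of PPARA and of RXRA was not tested.

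Among 25 other nuclear receptors that passed the filter, 9 were higher and 6 lower (60.0% called, against 47.2% of all genes tested). Their median of 0.03 became -0.03 without shACSL4 replicate 1, -0.01 without shControl replicate 3 and 0.15 with library size alone. NR1H4, the bile acid receptor FXR, which also pairs with RXR, had 0.641, 0 and 0.380 CPM in shACSL4 and 6.60, 5.71 and 6.99 CPM in shControl, on 10, 0 and 6 counts in shACSL4 and 111, 91 and 104 in shControl. HNF4A, a fatty acid binding factor of intestinal epithelium, had 232, 231 and 184 CPM in shACSL4 and 139.6, 132 and 125 CPM in shControl. NR4A2 had 8.59, 8.44 and 8.16 CPM in shACSL4 and 3.75, 3.39 and 3.90 CPM in shControl and NR4A1, its immediate early relative, had 34.2, 35.9 and 38.3 CPM in shACSL4 and 53.8, 51.7 and 56.2 CPM in shControl. The log2 fold changes of these 4 were -4.26 (SE 0.43), 0.71 (SE 0.10), 1.19 (SE 0.17) and -0.57 (SE 0.09).

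The genes whose pattern over the libraries was most like that of NR1H3 were ITGB5, an integrin subunit, ADAM15, a membrane metalloprotease, and PRR11. Their log2 fold changes were -0.46, -0.62 and -0.63. Likeness was the Pearson correlation of log2 CPM over the 6 libraries, among 10922 protein coding genes averaging 50 counts or more. It was 0.998, 0.997 and 0.996 for these 3, and 586 of the genes had a value over 0.95. The 6 libraries form 2 groups, which raises the correlation of any genes that both differ between the groups, and the values are a description alone.

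PPARG, NR1I2 and NR1H3 passed the test in all 16 alternatives tried, with log2 fold changes of -0.43 to -0.28 for PPARG, -0.58 to -0.41 for NR1I2 and -0.69 to -0.50 for NR1H3. VDR passed in 13 of 16.

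**Figure D5:**
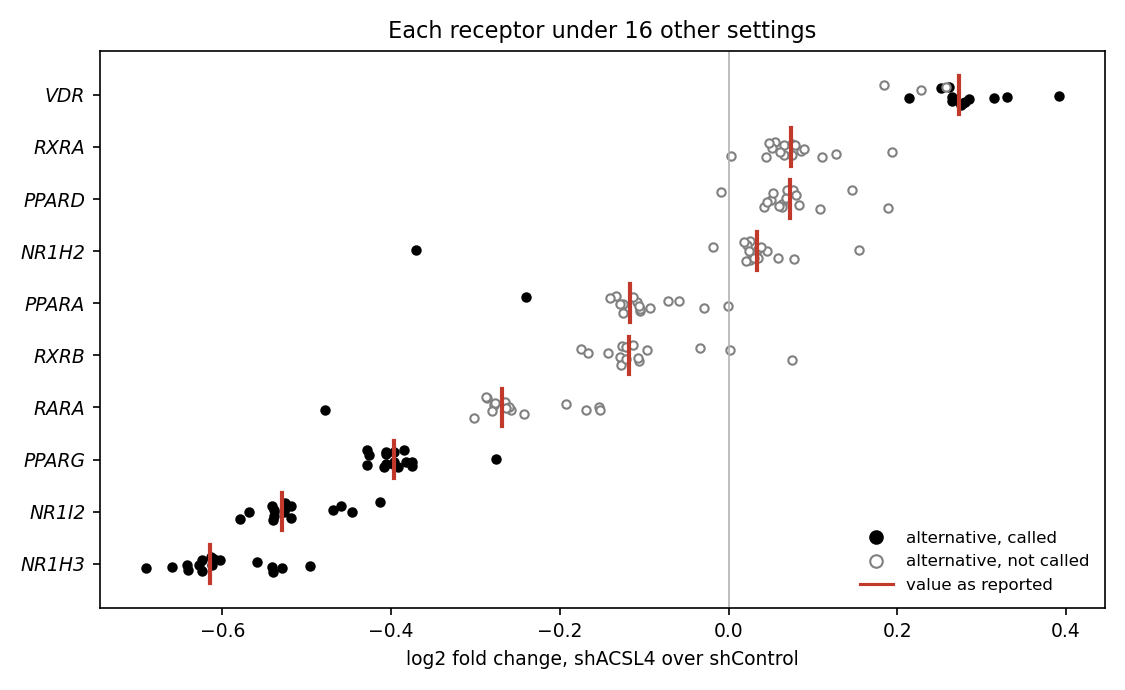
Log2 fold change, shACSL4 over shControl, of each receptor under 16 other settings, with settings in which it was called as filled points, others open, and the reported value as a bar. NR1H3, NR1I2 and PPARG are filled throughout, VDR is open in 3 settings, and RXRB, PPARD and NR1H2 have points on both sides of 0.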

How the data were processed

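RNA-seq of 3 shACSL4 and 3 shControl libraries of T84 cells was used. The submitters' processing notes name CASAVA, HISAT2 and GRCh38 (hg38) and give no versions. Which counter was used, and whether it used strand, is not given in the sources used here. The deposited table holds raw counts per gene, the authors' FPKM per library, a group mean signal of normalised counts by the authors, the authors' log2 fold changes and the authors' p-values, per the file headers. Its control columns, headed NC, were taken as shControl by number. No label says that the libraries of a group were separate cultures, so the p-values reflect the spread of these samples only, and that spread may be technical.

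Counts were filtered with filterByExpr, scaled by TMM (the basis of CPM) and tested with edgeR's quasi-likelihood test without covariates (edgeR 4.0.16, limma 3.58.1, R 4.3.3), adjusted by Benjamini-Hochberg over 15694 genes. Fold changes are shACSL4 over shControl. The edgeR test and the subtraction of the neighbours' median were tested on simulated data, with counts drawn from the dispersions of the fit itself. Limits such as the 3-count floor cover counting error only, because PCR copies were not told apart by molecular identifiers. The receptors, the 12 other gene lists and the tests were chosen with earlier results of these data known. From each of 8 pathway lists the text names at most the 4 called genes of smallest adjusted p, and for the receptor with the smallest adjusted p the 3 protein coding genes most correlated with it; not every gene this takes is reported here, and other genes named were chosen after their values were seen. One list symbol was matched through an older name. The alternatives were DESeq2 (1.42.0), limma-voom, scaling by library size alone or by median of ratios, genes averaging 50 counts or more, no filter, protein coding genes alone, limma-trend on log2(FPKM + 1), a replicate block, values relative to the median of 51 neighbouring genes (subtracted as fixed), and leaving out each library.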

Additional observations from a re-analysis of the deposited data

How the results depend on the processing

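PPARG, NR1I2 and NR1H3 kept their direction and their call in all 16 alternatives. When each library was left out in turn, log2 fold changes ranged from 0.21 to 0.33 for VDR, -0.24 to -0.029 for PPARA, -0.48 to -0.15 for RARA, 0.0025 to 0.13 for RXRA, -0.18 to -0.034 for RXRB, -0.0084 to 0.15 for PPARD and -0.019 to 0.077 for NR1H2. The count of receptors called higher then ranged from 0 to 1, of PPAR targets higher from 0 to 2, of LXR targets lower from 1 to 3, of VDR targets higher from 1 to 3 and of ligand supply genes higher from 3 to 4. Relative to neighbouring genes, VDR was at 0.18 and no longer called, RXRB at 0.076 and NR1H2 at -0.37, with 0 receptors, 2 PPAR targets and 3 ligand supply genes higher and 1 LXR target lower. With library size alone RXRB was at 0.0019, 4 PPAR targets were higher, and 1 LXR target and 2 coregulators were lower. Keeping genes averaging 50 counts or more left 1 VDR target lower, with fewer genes tested. Limma-trend on FPKM called 1 RAR target lower. Ligand supply genes called higher numbered 3 with DESeq2, with no filter and among genes averaging 50 counts or more. The cause of these shifts was not tested.

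No label says that the replicate numbers pair the libraries. Deviations of same-numbered libraries from their group means correlated at -0.0013 to 0.06. The highest correlation, 0.07, was between shACSL4 replicate 3 and shControl replicate 2. With 3 libraries a group, values this small cannot decide whether libraries were paired. With the replicate block 3769 genes were higher and 3645 lower, against 3769 and 3631 without it, and VDR was at 0.28, with the same number of receptors called. With 3 libraries a group the exact ratio tests cannot reach 0.05, and counting error limits genes with few counts, such as CYP24A1 at 4 to 35 counts per library.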

Other observations

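Other nuclear receptors with groups apart were called on both sides. NR5A2, a phospholipid-binding receptor of gut and liver, had 18.1, 13.0 and 16.2 CPM in shACSL4 and 10.1, 9.85 and 8.74 CPM in shControl, a log2 fold change of 0.71 (SE 0.15). NR3C2, the mineralocorticoid receptor, had 4.36, 4.22 and 4.43 CPM in shACSL4 and 2.50, 1.95 and 2.08 CPM in shControl, a log2 fold change of 0.99 (SE 0.23). HNF4G, the close relative of HNF4A, had 37.8, 36.8 and 38.2 CPM in shACSL4 and 29.9, 28.7 and 30.0 CPM in shControl, a log2 fold change of 0.35 (SE 0.09). All 3 were higher in every shACSL4 library than in any shControl library. The heme-binding clock repressors divided, with NR1D1 at 37.5, 43.8 and 34.3 CPM in shACSL4 and 51.8, 49.2 and 48.6 CPM in shControl and NR1D2 at 90.8, 87.6 and 72.2 CPM in shACSL4 and 64.6, 57.7 and 60.2 CPM in shControl. Their log2 fold changes were -0.37 (SE 0.10) and 0.46 (SE 0.10), with edgeR adjusted p = 0.00546 and 0.00098. These genes were chosen after their values were seen.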
